A study of Mus musculus with 8 samples.

Results

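The genes described here build the basement membrane or anchor cells to it: laminin chains, type IV collagens, nidogens, proteoglycans, integrin subunits and dystroglycan. A list of 37 such genes was matched to the gene names printed in the array files, and the brightest probe of each gene was used. Of the 37, 36 had a probe of that name, Hspg2 (perlecan) had none and was skipped, and 35 were bright enough to be tested among 19386 genes and unnamed transcripts. The remaining gene, Col4a3, had 3 probes, each well above background on 1 of the 8 arrays, and received no test.

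RNA came from pancreatic epithelia of mouse embryos at e15.5, with dorsal and ventral parts combined. Mutant embryos were Sox9fl/fl;Rosa26-CreER, in which tamoxifen activates a recombinase that cuts the floxed Sox9 allele. Wild-type embryos were Rosa26-CreER littermates, so both genotypes carried the recombinase, and dams of both received tamoxifen (6 mg per 40 g) at e12.5. The cross joined a Sox9-flox line, of mixed origin from FVB/N, C57Bl/6J and CD1, to Rosa26-CreER on C57Bl/6J. Each genotype had 4 samples, each pooling pancreata of 4 embryos, and p-values below measure the spread between such pools. The Rosa26 locus is active in most cell types, so recombination was not restricted to the epithelium, and the comparison asks what the loss of Sox9, a transcription factor of pancreatic progenitors, changes 3 days later.

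A basement membrane is a thin sheet of matrix under an epithelium or around a vessel. Laminins are trimers of an α, a β and a γ chain that assemble on the cell surface, type IV collagen forms a second network, and nidogens and heparan sulphate proteoglycans join them. Integrins are dimers of an α and a β subunit: α3β1, α6β1, α6β4 and α7β1 bind laminin, α1β1 and α2β1 bind collagen, and α5β1, α8β1 and the αv dimers bind proteins with an RGD motif such as fibronectin and vitronectin. In the embryonic pancreas the branching epithelium lies on such a sheet, and vessels and nerves carry their own.

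Levels are log2 processed signals relative to the 75th percentile of their array, and a gene was called at a limma adjusted p (Benjamini-Hochberg) under 0.05. The median processed signal was 219 to 272 scanner units on 7 arrays and 756 on that of mutant replicate 2, whose negative control probes had a median raw signal of 284 against 69 to 87. Its correlation with its own genotype, across genes, was 0.923 against 0.9935 to 0.9956 for the others, so results are also given without it. All wild-type arrays were on slide 1 and all mutant arrays on slide 2, so an effect of slide or scan and that of genotype cannot be told apart. Sox9 itself fell from 1.74 ± 0.07 to 0.42 ± 0.08 (SD, n = 4, adjusted p = 8.1e-04).

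In all, 2 of the 35 genes rose (Itgb6 and Itgb8) and 4 fell (Lama2, Col4a6, Itga6 and Itgb3) by their brightest probes. The 2 tested Itgb3 probes disagreed in direction. Over all features 5.48% were called, 2.22% higher and 3.26% lower. The median log2 change of the 35 genes was -0.05, beside 0.01 for all features. Without mutant replicate 2, Lama1 and Lamb3 were called higher as well, which made 4 higher and 4 lower, and 17.2% of all features were called, 7.17% higher and 10% lower. With any 1 of the other 7 arrays left out, 1 or 2 genes were called higher and 1 or 2 lower. For 11 of the genes the genotypes did not overlap, with the 4 mutant pools highest for 5 and lowest for 6. This held for 25.6% of all features, with the mutant above in 11.4% and below in 14.2%.

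Among the 29 genes that were not called, 20 had a 95% interval of the difference within 0.5 log2 units of 0. The wider intervals belonged to Lama1, Lama3, Lamb3, Lamc3, Col4a4, Col4a5, Itga7, Dag1 and Itga2. The SD between wild-type pools had a median of 0.12 over the genes, and that between mutant pools 0.18, or 0.09 without mutant replicate 2.

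**Figure D1:**
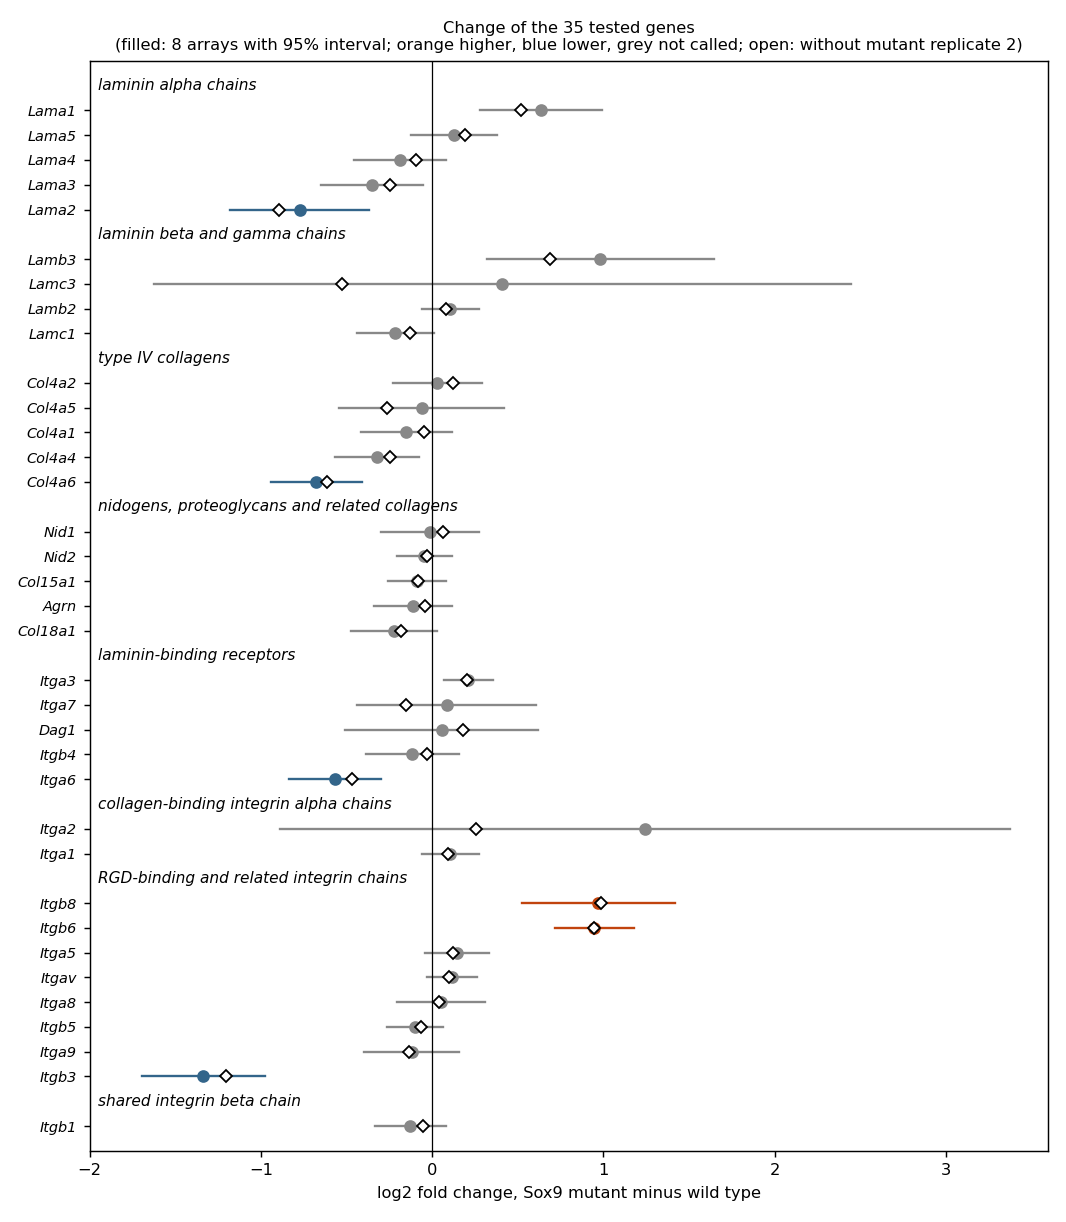
Log2 fold change, mutant minus wild type, of the 35 tested genes by role, with its 95% interval over 8 arrays (filled points) and without mutant replicate 2 (open diamonds). The 2 orange genes, Itgb6 and Itgb8, lie near 0.95 and 0.97, the 4 blue genes between -1.34 and -0.57, and the interval of Itga2 is the widest.

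Promoter sequences are shown for the called genes that RefSeq gives one for, and for Col4a5, whose start lies head to head with that of Col4a6, since these are the genes whose transcripts the comparison turns on. RefSeq windows matched 25 of the 35 tested genes and 4 of the 6 called ones. Each is the 250 bases before the transcription start on the gene's own strand in assembly GRCm38.p6: Itgb6 chr2:60722604-60722853 (minus strand, the more upstream of its starts), Itgb8 chr12:119238277-119238526 (minus), Lama2 chr10:27616943-27617192 (minus), Col4a6 chrX:141474077-141474326 (minus) and Col4a5 chrX:141475169-141475418 (plus). Capitals mark matches on either strand. The motifs searched were the GC box GGGCGG, the CCAAT box with just those letters, a TATA box spelled TATAAA, and a pair of core words that SOX proteins bind, one spelled ACAAAG and the other spelled ACAATG. None of these motifs overlaps another as searched.
Itgb6: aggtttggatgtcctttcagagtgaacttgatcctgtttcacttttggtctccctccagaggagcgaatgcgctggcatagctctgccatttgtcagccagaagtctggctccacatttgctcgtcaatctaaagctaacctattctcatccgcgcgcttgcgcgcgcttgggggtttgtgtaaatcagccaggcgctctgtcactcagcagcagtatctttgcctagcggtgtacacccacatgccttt
Itgb8: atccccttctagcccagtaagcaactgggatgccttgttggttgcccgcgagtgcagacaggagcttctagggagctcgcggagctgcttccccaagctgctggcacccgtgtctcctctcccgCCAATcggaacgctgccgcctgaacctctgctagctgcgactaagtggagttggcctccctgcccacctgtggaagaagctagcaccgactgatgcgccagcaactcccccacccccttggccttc
Lama2: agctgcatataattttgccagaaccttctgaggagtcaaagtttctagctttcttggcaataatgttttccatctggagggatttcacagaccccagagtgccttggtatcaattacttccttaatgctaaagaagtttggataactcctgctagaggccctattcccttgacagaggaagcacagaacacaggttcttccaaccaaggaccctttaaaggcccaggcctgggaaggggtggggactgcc
Col4a6: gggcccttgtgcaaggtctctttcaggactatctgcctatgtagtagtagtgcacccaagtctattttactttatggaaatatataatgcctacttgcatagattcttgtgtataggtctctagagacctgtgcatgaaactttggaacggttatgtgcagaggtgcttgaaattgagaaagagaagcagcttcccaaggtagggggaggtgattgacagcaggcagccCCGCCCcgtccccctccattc
Col4a5: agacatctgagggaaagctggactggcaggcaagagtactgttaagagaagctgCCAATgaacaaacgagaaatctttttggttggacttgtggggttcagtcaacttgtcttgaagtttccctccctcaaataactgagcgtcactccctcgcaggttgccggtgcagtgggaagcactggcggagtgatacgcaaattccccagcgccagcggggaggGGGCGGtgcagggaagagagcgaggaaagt
The Itgb6 and Lama2 windows hold none of the searched motifs. The Itgb8 window holds 1 CCAAT, the Col4a6 window 1 GC box (read as CCGCCC), and the Col4a5 window 1 of each. Of 32817 RefSeq windows of this length, 32.7% hold the GC box, 33.8% the CCAAT box and 12.4% the TATA box. The SOX word ACAAAG is in 16.5% of them and the other SOX word in 10.7%. The share of G and C ran from 47.2% in the Lama2 window, which has no CpG, to 62.4% in that of Itgb8, which has 12.

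Laminin α chains decide which receptor a laminin binds, and the 5 chains did not move together: Lama2 fell, and the rest were not called. Lama2 encodes the α2 chain, found around muscle and Schwann cells. It read -1.24, -1.54, -0.94 and -1.08 in the wild-type pools and -2.23, -1.61, -1.96 and -2.08 in the mutant pools. The groups did not overlap, but the lowest wild-type pool lay close to mutant replicate 2, the highest mutant pool. The mean went from -1.20 ± 0.26 to -1.97 ± 0.26, a 1.71-fold fall (log2 change -0.77, SE 0.17, adjusted p = 0.0485). Of the 8 refits that each omit 1 array it passed in 1, without mutant replicate 2 (-0.89, adjusted p = 0.0104), and the others gave an adjusted p of 0.0568 to 0.129. The difference was -0.27 in the deposited series table (adjusted p = 0.380) and -0.43 with the mean of all probes (adjusted p = 0.376). Of 18 alternative settings, refits included, Lama2 was called in 4. A second Lama2 probe, to the RefSeq mRNA, changed by -0.08 (adjusted p = 0.901 over all probes) and by -0.50 without mutant replicate 2 (adjusted p = 0.0843). In bulk samples, fewer cells of a type and less RNA per cell cannot be told apart.

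Markers of Schwann cells and neurons moved with Lama2. Their 13 genes summed to 13.0 to 17.0 times the 75th percentile in the wild-type pools and to 8.96 to 11.5 times in the mutant pools, without overlap. Sox10 (-1.04, adjusted p = 0.00607), S100b (-1.62, adjusted p = 0.00845) and Fabp7 (-0.99, adjusted p = 0.0323), genes of Schwann cells and their precursors, fell. Their part in the fall of Lama2 was not tested.

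Lama1, the α1 chain of early embryonic epithelial membranes, read -2.19, -2.06, -2.09 and -2.48 in wild type and -1.58, -1.22, -1.63 and -1.85 in the mutant. Every mutant pool lay above every wild-type pool. The log2 difference of 0.64 was not called with 8 arrays (adjusted p = 0.0586) and was called without mutant replicate 2 (0.52, adjusted p = 0.0297). Lama5, the widespread α5 chain of epithelial membranes, differed by 0.13, Lama4, a vascular chain, by -0.19, and Lama3, the chain of hemidesmosomes, by -0.35 (adjusted p = 0.147), and none of these was called with or without that array.

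None of the 4 laminin β and γ chains was called with 8 arrays, and Lamb3 was called higher without mutant replicate 2. Lamb3, the β3 chain, read -3.27, -3.02, -2.89 and -3.05 in wild type and -2.40, -1.19, -2.46 and -2.25 in the mutant. The groups did not overlap, and mutant replicate 2 stood well above its group. The difference was 0.98 (SE 0.28, adjusted p = 0.0902) with that array and 0.69 (adjusted p = 0.00679) without it.

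The γ1 chain Lamc1, part of most laminins, lay lower in every mutant pool by little (-0.22, adjusted p = 0.211). Lamb2, the β2 chain, differed by 0.11 (adjusted p = 0.377). The dim Lamc3 probe read -2.14 in mutant replicate 2 and -6.05 to -5.75 in the other mutant pools, so its difference went from 0.41 to -0.53 when that array was left out, and neither was called.

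Of the type IV collagens, Col4a6 fell and the other 4 that could be tested were not called. Col4a1 and Col4a2 form the network of nearly all basement membranes, Col4a3, Col4a4 and Col4a5 that of the kidney filter, and Col4a5 and Col4a6 a network under some epithelia and smooth muscle. Col4a6 read 0.68, 0.63, 0.81 and 1.02 in wild type and 0.17, -0.07, 0.28 and 0.06 in the mutant. All mutant pools were below all wild-type pools, with a clear gap. The fall was 1.60-fold, from 0.78 ± 0.17 to 0.11 ± 0.15 (log2 change -0.68, SE 0.11, adjusted p = 0.0203). Each of its 3 probes was lower in the mutant, the other probes by -0.48 (adjusted p = 0.0190) and -0.69 (adjusted p = 0.0345).

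Col4a6 passed in 4 of the 8 refits. The calls were lost without mutant replicate 1 (adjusted p = 0.0561), mutant replicate 4 (0.0612), wild-type replicate 1 (0.0563) or wild-type replicate 3 (0.0699), and with median centring (-1.06, adjusted p = 0.398), normexp (adjusted p = 0.130) or no brightness filter (adjusted p = 0.0531). Its neighbour Col4a5, with a start 1343 bases away, differed by -0.06 (adjusted p = 0.863), and by -0.26 without mutant replicate 2. Col4a1 (-0.15) and Col4a2 (0.03), whose starts are 21 bases apart, were not called, nor was Col4a4 (-0.32, adjusted p = 0.116), although its mutant pools all lay below the wild-type ones.

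No nidogen, proteoglycan or related collagen was called, with or without mutant replicate 2. Col18a1, a heparan sulphate collagen of epithelial and vascular membranes, had the smallest p of these genes. It read 4.22, 4.22, 4.26 and 4.31 in wild type and 4.19, 3.89, 3.81 and 4.22 in the mutant, so the groups overlapped at their edge. The difference was -0.22 (SE 0.11, 95% interval -0.47 to 0.03, adjusted p = 0.235). The linker proteins Nid1 (-0.01, interval -0.30 to 0.28) and Nid2 (-0.05, interval -0.21 to 0.12), the proteoglycan Agrn (-0.11, interval -0.34 to 0.12) and Col15a1 (-0.09, interval -0.26 to 0.08) had intervals that reach 0.5 log2 units on neither side.

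Among laminin receptors Itga6 fell, and its partner Itgb4, the shared Itgb1 and the other laminin-binding α subunits were not called. Itga6 encodes α6, which pairs with β1 or, in hemidesmosomes, with β4. It read 4.20, 4.09, 4.08 and 4.13 in wild type and 3.69, 3.25, 3.53 and 3.75 in the mutant. The wild-type pools were close together and every mutant pool was lower, mutant replicate 2 most. The fall was 1.48-fold, from 4.12 ± 0.06 to 3.56 ± 0.22 (log2 change -0.57, SE 0.11, adjusted p = 0.0359), and 1.38-fold without mutant replicate 2 (-0.47, adjusted p = 0.00750).

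Itga6 passed in 2 of the 8 refits, those without mutant replicate 2 or without mutant replicate 4 (adjusted p = 0.0488). It missed in the 6 others, at 0.0703 to 0.113. With the mean of all probes the difference was -0.31 (adjusted p = 0.0908), and the call was lost too with median centring (-0.95, adjusted p = 0.489), normexp (adjusted p = 0.494) and no brightness filter (adjusted p = 0.0862). The probe to its RefSeq mRNA changed by -0.52 (adjusted p = 0.0660 over all probes). The dimmest Itga6 probe, to another cDNA and well above background in every pool, changed by 0.16 (adjusted p = 0.576). Itgb4, the β4 chain, differed by -0.12 (95% interval -0.39 to 0.16).

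Itga3, the α3 subunit, was higher in every mutant pool by a small amount (0.21, SE 0.06, adjusted p = 0.0924). A second Itga3 probe rose by 0.37 (adjusted p = 0.0865 over all probes) and was called without mutant replicate 2 (0.28, adjusted p = 0.0229). The dimmest Itga3 probe differed by 0.15 (adjusted p = 0.567 over all probes). Itga7, a muscle laminin receptor, and Dag1, dystroglycan, each had 1 pool far from the rest: Itga7 read -1.23 in mutant replicate 2 and no more than -2.12 in the other mutant pools, and Dag1 read 1.78 in wild-type replicate 4 and at least 2.62 in the other wild-type pools. Their differences of 0.09 and 0.06 were not called. Itgb1, the β chain that most of these α subunits share, read 2.45, 2.41, 2.38 and 2.32 in wild type and 2.33, 2.04, 2.27 and 2.40 in the mutant. The groups overlapped (-0.13, SE 0.09, adjusted p = 0.395). A second Itgb1 probe went the other way, by 0.23 (adjusted p = 0.0916 over all probes), and was called without mutant replicate 2 (0.24, adjusted p = 0.0352). In the deposited series table the gene was called higher (0.26, adjusted p = 0.0305).

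The collagen receptors Itga1 and Itga2 were not called by their brightest probes. Itga1 read -1.76, -1.83, -1.74 and -1.92 in wild type and -1.77, -1.66, -1.79 and -1.61 in the mutant, with overlap (0.11, SE 0.07, adjusted p = 0.376). Its sign turned with median centring (-0.28), quantile normalization (-0.23) and normexp background correction (-0.08). The other tested Itga1 probes were higher in the mutant, by 0.25 (adjusted p = 0.138 over all probes) and by 1.07 (adjusted p = 0.150). Without mutant replicate 2 the first was not called (0.23, adjusted p = 0.106). The second, the dimmest, was called higher (0.66, adjusted p = 0.00326). The dim Itga2 probe read -1.47 in mutant replicate 2 and -5.45 to -5.38 in the other mutant pools. Its difference was 1.24 with that array and 0.26 without it, neither called.

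RGD-binding and related integrin chains held 3 of the 6 calls. By their brightest probes the β subunits Itgb6 and Itgb8 rose and Itgb3 fell, while their common partner Itgav, and Itgb5, Itga5, Itga8 and Itga9, were not called. The other tested Itgb3 probe went the opposite way, and the sign of Itgb8 turned in 2 alternative settings. The αvβ6 and αvβ8 dimers are known for releasing active TGF-β from its latent form, and β6 is restricted to epithelia. Itgb6 read -2.29, -2.17, -2.24 and -1.92 in wild type and -1.17, -1.21, -1.35 and -1.11 in the mutant. The lowest mutant pool was well above the highest wild-type pool, and mutant replicate 2 sat within its group. The rise was 1.93-fold, from -2.16 ± 0.16 to -1.21 ± 0.10 (log2 change 0.95, SE 0.10, adjusted p = 0.00480).

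Itgb6 was called in 8 of 8 refits, at an adjusted p of 0.00290 to 0.0257. It kept its sign but missed the threshold with median centring (0.56, adjusted p = 0.525), quantile normalization (0.68, adjusted p = 0.0924) and normexp background correction (0.56, adjusted p = 0.648). Its 3 probes all rose, the other probes by 1.65 (adjusted p = 0.0427) and 1.05 (adjusted p = 0.0104). The main probe lies on chromosome 2 at 60399318 to 60399377 (minus strand), in the mm8 (NCBI36) coordinates of the files. The main probes of the other called genes lie at chromosome 12, 119632348 to 119632407 (Itgb8), chromosome 10, 26673839 to 26673898 (Lama2), chromosome X, 136411815 to 136411874 (Col4a6), chromosome 2, 71658755 to 71658814 (Itga6) and chromosome 11, 104486448 to 104486507 (Itgb3). No annotation of that assembly was used here, so exon and UTR positions are not given.

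Itgb8 read -5.09, -5.06, -4.83 and -5.74 in wild type and -4.03, -4.25, -4.20 and -4.35 in the mutant. The groups did not overlap and the wild-type pools were widely spread. The rise was 1.96-fold (log2 change 0.97, SE 0.19, adjusted p = 0.0339), but the probe is dim, and the sign turned with quantile normalization (-0.08) and with normexp background correction (-0.06). In the deposited series table the difference was 0.24 (adjusted p = 0.484). The call was lost too with median centring (adjusted p = 0.525), without the brightness filter (0.0778) and with the mean of all probes (0.0672). The call was lost without wild-type replicate 1 (adjusted p = 0.0922), wild-type replicate 2 (0.0834), or mutant replicate 1 (0.0915), 3 (0.0838) or 4 (0.0690). A second probe, well above background in 1 wild-type and 4 mutant pools, differed by 1.02 (adjusted p = 0.240 over all probes).

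Itgb3 encodes the β3 subunit of αvβ3 and of the platelet receptor αIIbβ3. Its brightest probe read 0.18, 0.10, 0.37 and 0.52 in wild type and -0.96, -1.44, -0.89 and -0.89 in the mutant. All mutant pools were far below all wild-type pools. The fall was 2.53-fold (log2 change -1.34, SE 0.15, adjusted p = 0.00635), called in 8 of 8 refits that omit an array. It missed with median centring (-1.72, adjusted p = 0.145) and quantile normalization (-1.54, adjusted p = 0.0571). That probe is annotated to a cDNA clone, however, and the probe to the Itgb3 RefSeq mRNA went the other way: -0.97 ± 0.07 in wild type and -0.72 ± 0.04 in the mutant, a difference of 0.25 (adjusted p = 0.0782 over all probes), called higher without mutant replicate 2 (0.26, adjusted p = 0.0288). The probes therefore disagree on the direction of Itgb3, and the count of 4 lower genes rests on the brighter one. Itga2b, the αIIb partner in platelets, differed by 0.84 with 8 arrays and by 0.08 without mutant replicate 2, neither called.

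Itgav, the αv subunit, differed by 0.12 (95% interval -0.03 to 0.26, adjusted p = 0.278). Itgb5, another αv partner, differed by -0.10, and the β1 partners Itga5 (0.14), Itga8 (0.05) and Itga9 (-0.12) had intervals within 0.5 log2 units of 0. Other tested probes of the 35 genes numbered 30, in 21 genes, and 24 of them had the sign of the main probe. For the called genes it was 7 of 9, the exceptions being the RefSeq probe of Itgb3 and the dimmest probe of Itga6. The 7 include the second Itgb8 probe, which passed the brightness filter only through the mutant pools.

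**Figure D2:**
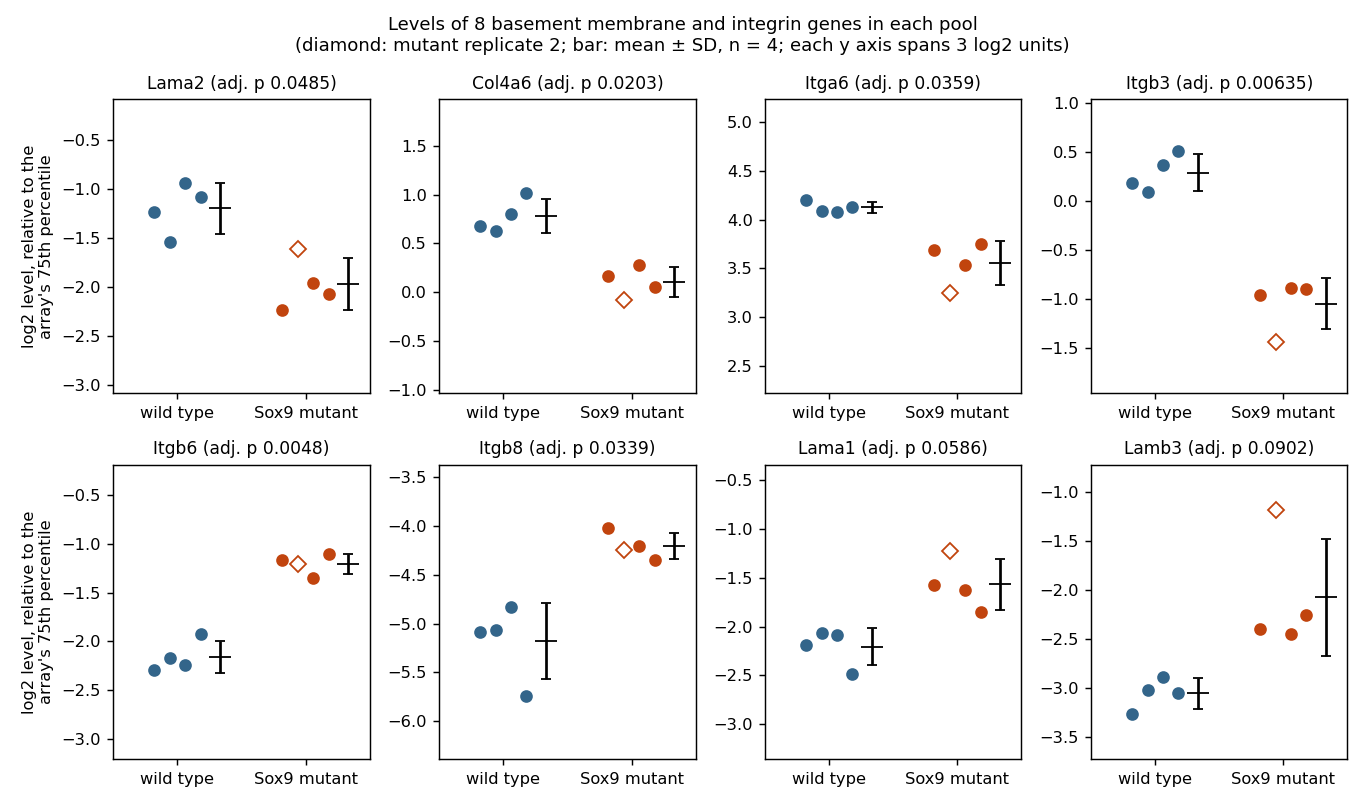
Log2 level in each pool for the 6 called genes and for Lama1 and Lamb3, called without mutant replicate 2 (diamond); bars are mean ± SD (n = 4) and each axis spans 3 log2 units. The genotypes do not overlap in any panel, and mutant replicate 2 reads -1.19 for Lamb3, apart from its group.

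**Figure D3:**
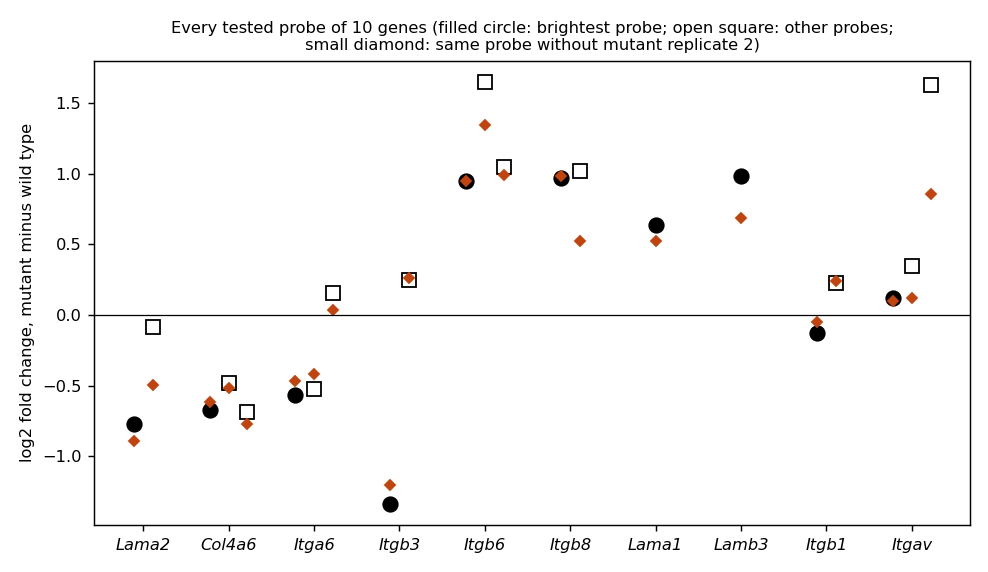
Log2 fold change of every tested probe of 10 genes, the brightest as a filled circle, others as squares, and each without mutant replicate 2 as a small diamond. The Itgb6 and Col4a6 probes lie on one side of 0, from 0.95 to 1.65 and from -0.69 to -0.48, while the Itgb3 probes lie at -1.34 and 0.25.

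Since subunits act in pairs, 14 pairs of known partners or network neighbours were compared as a ratio within each array, which is free of the scaling between arrays but shows only that the genes changed unequally. In 12 of the 14 pairs the ratios of the genotypes did not overlap, which for a single pair gives p = 0.0286 in the two-sided exact permutation test, the lowest value possible with 4 against 4 pools. The pairs were chosen with earlier results known, several hold a gene called on its own, and the share of arbitrary pairs whose ratios do not overlap was not measured, so the 12 are a description (25.6% of single features did not overlap). Without mutant replicate 2 the exact permutation p was 0.0571 for Col4a1 over Col4a2, Lama1 over Lama5 and Lama5 over Lamc1.

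The ratio of Itga6 to Itgb4 fell by 0.45 on the log2 scale and that of Itga6 to Itgb1 by 0.44, while Itga3 over Itga6 rose by 0.78. Among αv partners, the ratio of Itgav to Itgb6 went from 2.40 ± 0.12 to 1.57 ± 0.07, a change of -0.83. For Itgav over Itgb8 the change was -0.85, which turned to 0.22 with quantile normalization and 0.18 with normexp.

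For Lama3 over Lamb3 the change was -1.34, and -0.94 without mutant replicate 2. Col4a5 over Col4a6 changed by 0.62, and by 0.35 without that array. Smaller changes were those of Lama1 over Lama5 (0.51), Lama5 over Lamc1 (0.35), Itga3 over Itgb1 (0.34), Lamb2 over Lamc1 (0.32) and Col4a1 over Col4a2 (-0.18). Nid1 over Nid2 (0.04, exact permutation p = 0.800) and Col15a1 over Col18a1 (0.13, exact permutation p = 0.371) overlapped between genotypes.

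**Figure D4:**
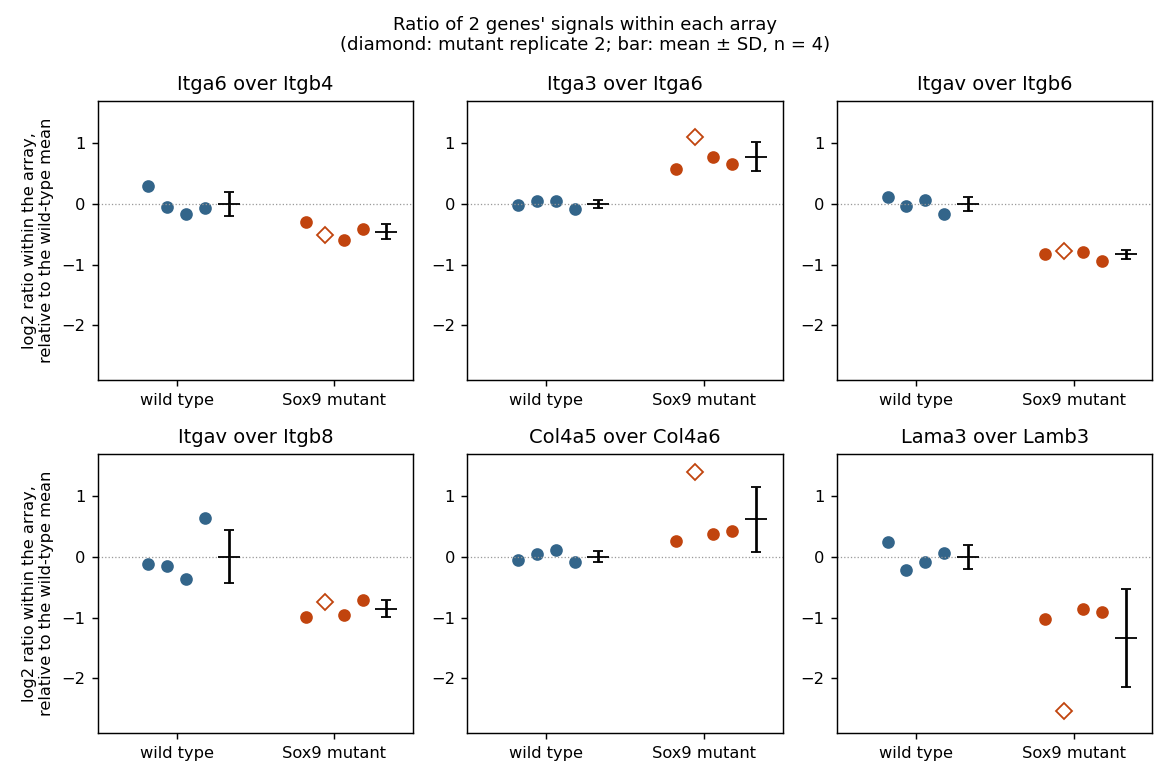
Log2 ratio of 6 gene pairs within each array, relative to the wild-type mean; bars are mean ± SD (n = 4) and the diamond is mutant replicate 2. Itgav over Itgb6 changed by -0.83 with that array inside its group, while in Col4a5 over Col4a6 and Lama3 over Lamb3 it lies far from the other mutant pools.

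Other basement membrane and matrix genes were followed through a list of 28, of which 27 were tested, 2 rose and 3 fell (median log2 change 0.04). Vtn, vitronectin, an RGD ligand of the αv integrins, rose 2.45-fold from 3.16 ± 0.10 to 4.46 ± 0.16 (log2 change 1.29, SE 0.10, adjusted p = 0.00239). It read 4.31 to 4.61 in the mutant pools and 3.07 to 3.29 in wild type. Smoc1, a calcium-binding basement membrane protein (-0.82, adjusted p = 0.0102), Pxdn, the peroxidase that cross-links type IV collagen (-0.56, adjusted p = 0.0250), and Tinagl1, a matricellular protein that binds laminin (-0.29, adjusted p = 0.0428), fell. Pxdn and Tinagl1 each passed in 1 of 8 refits, the one without mutant replicate 2.

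Among 10 tested integrin genes outside the 37, Itga11, a fibroblast collagen receptor, rose (0.43, adjusted p = 0.0277) and none fell. Of 32 adaptor and co-receptor genes, 2 rose and 2 fell. Bcam, a receptor for laminins with the α5 chain (0.32, adjusted p = 0.0255), and the syndecan Sdc4 (0.60, adjusted p = 0.0457) rose. Fermt1, the epithelial kindlin that activates β integrins (-0.49, adjusted p = 0.0200), and Itgb1bp1, which binds the β1 tail (-0.50, adjusted p = 0.0364), fell.

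In the dystroglycan group, 1 of 14 tested genes fell, the sarcoglycan Sgcb (-0.72, adjusted p = 0.0210), and none rose. Of 25 genes of collagen processing and matrix turnover, 1 rose, the protease Mmp11 (0.46, adjusted p = 0.0161), and none fell. The counts of these lists stand beside 5.48% called over all features, and those of 1 in 14 and 1 in 25 are close to it. Among the refits, Itga11, Sdc4 and Itgb1bp1 passed in 1 of 8, without mutant replicate 2, Bcam in 2, and Fermt1, Sgcb and Mmp11 in 4, whereas Vtn and Smoc1 passed in 8.

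Matrix genes are also transcribed by stroma and vessels, and markers of those cells were present. All 11 epithelial, 16 mesenchymal and 14 endothelial markers passed the brightness filter, so the label of pancreatic epithelia does not mean that other cells were absent. Mesenchymal markers summed to 381 to 450 times the 75th percentile in wild type and 305 to 398 in the mutant, and 2 rose (Nkx3-2 and Barx1) and none fell. Endothelial markers summed to 55.9 to 64.1 and 49.1 to 61.3, with none called. Epithelial markers summed to 192 to 207 and 193 to 262, with none called, and 3 keratins were higher without mutant replicate 2. Pancreas markers summed to 305 to 361 in wild type and 191 to 293 in the mutant, without overlap, and 3 of 10 fell (Sox9, Pdx1 and Neurog3). Myeloid markers summed to 25.2 to 31.9 and 19.2 to 26.7, with 1 lower (Fcgr3). Of 7 mesothelial markers 1 rose (Upk1b), and of 7 tested erythroid markers 2 rose (Hbb-y and Hba-x), beside 5.48% called over all features. The median log2 change of the erythroid markers was 0.84, and -0.07 without mutant replicate 2. Of the markers called, Barx1 and Upk1b passed in 1 of 8 refits, Fcgr3, Hba-x and Fabp7 in 2 and Hbb-y in 3, while Nkx3-2, Sox10, S100b, Pdx1, Neurog3 and Sox9 passed in 8. The 35 genes themselves summed to 193 to 210 and 158 to 191. For the epithelial, mesenchymal, endothelial, pancreas and myeloid sums, and that of the 35 genes, the lowest mutant pool was mutant replicate 2. In the epithelial sum it was the only mutant pool within the wild-type range, and the others lay above it. The part of these cells in the changes of Itga6, Col4a6, Itgb3, Itgb6 and Itgb8 was not tested.

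**Figure D5:**
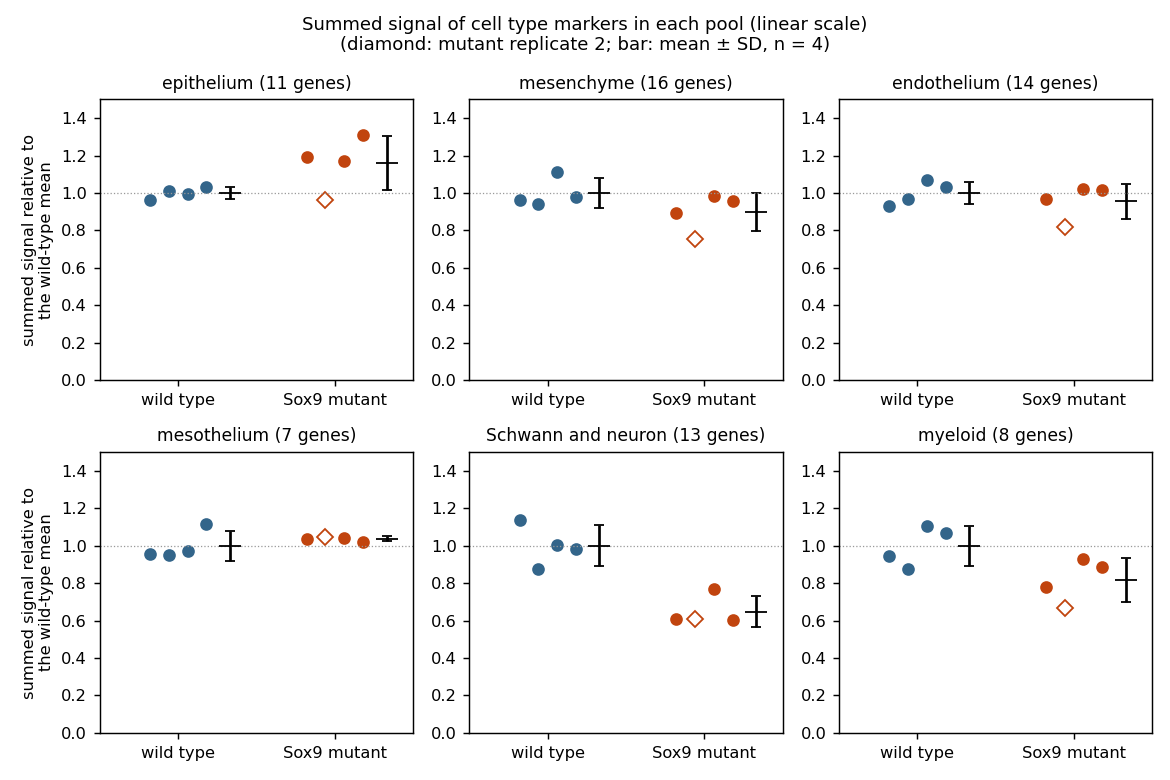
Summed linear signal of the markers of 6 cell types in each pool, relative to the wild-type mean; bars are mean ± SD (n = 4) and the diamond is mutant replicate 2. Among these 6, the genotypes overlap for epithelium, mesenchyme, endothelium, mesothelium and myeloid cells but not for Schwann cells and neurons, where the sums were 13.0 to 17.0 in wild type and 8.96 to 11.5 in the mutant. For epithelium the overlap comes from mutant replicate 2 alone (193, against 192 to 207 in wild type), and the other mutant pools lie above wild type.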

How the data were processed

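Cy3-labelled RNA of 8 pools was hybridised to Agilent arrays of design 014868. The deposited scanner files were written by Feature Extraction 9.5.3.1, per the file headers, and give a processed signal, an intensity in linear units after background subtraction and without normalization between arrays. The deposited series table holds an intensity whose steps are not given in the sources used here. Its columns correlated with the raw median signal at r of at least 0.9995 on 7 arrays and 0.9817 on mutant replicate 2, and it served as an alternative only. For their own analysis, the submitters name limma in their processing notes.

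Control and outlier spots were left out, log2 values of a probe's spots were averaged, and each array's 75th percentile was subtracted. Probes well above background on at least 4 of 8 arrays were kept (29462 of 41174), and the brightest stood for its gene. Genotype was fitted over 19386 features with limma 3.58.1 (R 4.3.3, version 1.17.8 of data.table). Second probes come from the same fit over all kept probes. On simulated data, 82.5% of features changed by 1 log2 unit were called and 8.84% of calls were false. The simulation gave all 8 arrays the spread of the wild-type pools and held no array like mutant replicate 2. Its shares therefore need not hold for the real arrays. Gene names of the files were used for the 37 genes, and RefSeq (GRCm38.p6) symbols for others. The number of arrays limits the precision, and depth is not defined for arrays.

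The genes, lists and pairs were chosen with earlier results of these data known. Values in every pool were given for genes called with 8 arrays or without mutant replicate 2 and, in groups without a call, for the gene with the smallest p. From other lists up to 4 called genes were named by adjusted p, and Tinagl1, Itga2b and the cell type markers were named after their values were seen. One called gene of the other basement membrane genes is counted but not reported here. Alternatives covered scaling, background, brightness filter, probe choice, array weights, leaving out each array, and the series table.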

Additional observations from a re-analysis of the deposited data

Results flagged for a closer look

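For each of the 35 genes and each genotype, the pool at either end was compared with the other 3. In 9 of 70 groups its gap to the nearest pool exceeded Dixon's critical value of 0.829 times the range, where chance flags about 1 in 20 groups. In 7 of the 9 the pool was mutant replicate 2, the array with the raised background. It read high for Lamb3 (-1.19, others -2.46 to -2.25), Lamc3 (-2.14, others -6.05 to -5.75), Itga7 (-1.23, others -2.25 to -2.12) and Itga2 (-1.47, others -5.45 to -5.38). It read low for Agrn (5.14, others 5.39 to 5.44), Dag1 (2.15, others 2.64 to 2.66) and the main Itgb3 probe (-1.44, others -0.96 to -0.89). The remaining flags were Dag1 in wild-type replicate 4 (1.78, others 2.62 to 2.76) and Itga8 in mutant replicate 4 (-0.0165, others 0.18 to 0.22).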

How the results depend on the processing

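Against 2 higher and 4 lower genes, median centring called 0 and 0, normexp 0 and 1, the mean of all probes 1 and 2, and no brightness filter 1 and 1. Quantile normalization called 1 higher and 3 lower, and array weights 5 higher and 4 lower. The median log2 change of the 35 genes was -0.43 with median centring, which moved that of all features to -0.38, and 0.051 with the mean of all probes. At an unadjusted limma p under 0.05 the 35 genes gave 11, 5 with median centring and 4 with normexp. The count of 11 stands beside 4895 of all 19386 features under the same limit. With an array left out, higher genes numbered 1 to 4 and lower genes 1 to 4. All features called numbered 1062, but 56 with median centring, 80 with normexp, 419 without the filter, 4747 with array weights, 2181 in the series table and 360 to 3337 with an array left out. Among all features, mutant replicate 2 gave the most calls when left out.

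The deviations of same-numbered samples correlated at -0.02 to 0.13, and those of differently numbered samples at -0.16 to 0.13. With 4 same-numbered pairs, 1 of them holding mutant replicate 2, these values cannot settle whether the numbers pair the samples. With the number as a block, 1 gene was called higher and 1 lower, and 116 features in all.

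Signs turned for Itgb8 (-0.078 with quantile normalization, -0.056 with normexp), for Itgav over Itgb8 (0.22 and 0.18), for Itga1 (-0.28 with median centring, -0.23 with quantile normalization, -0.083 with normexp), for Itgb1 (0.051 with the mean of all probes, 0.26 in the series table, called higher there), for Itga3 over Itgb1 (-0.10 in the series table) and for Lama1 over Lama5 (-0.0028 with normexp). The cause was not tested. Partner pairs with an exact permutation p under 0.05 after adjustment over the 14 numbered 12, 0 with normexp, 0 in the series table, and 0 to 11 with an array left out, 0 without wild-type replicate 1. Pairs without overlap share the lowest possible p, so after adjustment they pass or miss together. A count of 0 thus does not mean that no pair differed. For Col4a1 over Col4a2 the adjusted permutation p was 0.0667 in the series table and 0.0571 without wild-type replicate 1. Signal over background limits Itgb8, Lamc3 and Itga2 most, whose probes are dim.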
